A study of Mus musculus with 11 samples.

Results

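Transcripts of 10 genes that mark lymphocytes and antigen presentation were followed across 11 bulk RNA-seq libraries of mouse pancreatic islets. The genes were *Cd79a*, *Cd79b*, *Ms4a1*, *Ighm*, *Igkc*, *Cd3e*, *Ptprc*, *Cd74*, *H2-Aa* and *H2-Ab1*, chosen by symbol among the 55536 genes of each count table, and all 10 passed the low-count filter of every comparison. Islets came from female C57BL/6J mice that entered the study at 9 weeks of age. Virgin mice were compared with multipara littermates that had completed 3 pregnancies and were studied 3 weeks after the last delivery. The S-961 groups received S-961, a peptide that blocks the insulin receptor, injected at a dose of 100 nmol/kg over 3 days (2 injections daily). They held 3 virgin and 4 multipara libraries. The groups without injection, called untreated here, held 2 virgin and 2 multipara libraries. No transgene or targeted allele was named for any group. Libraries are named by group and replicate number, and nothing in the labels tied a number to a separate mouse, so that p-values measure the spread between these samples only.

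Islets hold mainly endocrine cells, with few resident leukocytes that are mostly macrophages. B cells detect antigen with a surface immunoglobulin, whose heavy chain is made from *Ighm* before class switching and whose light chain is usually made from *Igkc*. The signal is passed on by *Cd79a* and *Cd79b*, and *Ms4a1* encodes the B cell surface protein CD20. Plasma cells, which secrete antibody, keep very high immunoglobulin mRNA and lose most *Ms4a1*. *Cd3e* encodes a subunit of the T cell receptor complex, and *Ptprc* encodes CD45, a phosphatase on all leukocytes. MHC class II molecules present peptides to helper T cells on B cells, dendritic cells and activated macrophages. *H2-Aa* and *H2-Ab1* encode the chains of one such molecule, and *Cd74* encodes the invariant chain that guides it through the cell.

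Total counts ran from 22028507 to 32234146 per library. Levels are given in CPM, the count of a gene scaled to the size of its library, with TMM factors set over all 11 libraries. This scaling matters across treatments, because *Ins2* alone ran from 303182 to 417613 CPM in the untreated libraries and from 68711 to 135815 CPM with S-961. The library labelled multipara S-961 4 had *Mki67*, a marker of cycling cells, at 3.93 CPM, against 43.5 to 93.8 CPM in the other 3 libraries of its group. It lay within the range of the virgin S-961 libraries, 3.04 to 13.8 CPM, while virgin untreated libraries had 6.54 and 3.51 CPM. *Mki67* was at 38.6 CPM in multipara untreated 1 and at 2.14 CPM in multipara untreated 2. In the comparison of the S-961 groups, 8 of 8 proliferation genes had positive estimates in libraries labelled multipara, with a median log2 fold change of 3.61, and 0 passed the test. Groups follow the labels throughout. Whether each S-961 label matches its mouse was not tested, and the direction of every parity estimate with S-961 rests on these labels. Acinar genes summed to between 64.3 and 194 CPM in untreated libraries and to between 2040 and 15423 CPM with S-961. The labels did not say whether untreated and S-961 libraries were prepared together. Treatment and islet preparation therefore cannot be told apart in comparisons of S-961 with untreated libraries. In bulk samples, fewer cells of a type and less RNA per cell cannot be told apart.

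The library multipara untreated 1 stood apart from the rest in this set of genes. It was the highest of 11 libraries for 10 of 10 genes, whereas 13.5% of the 17996 genes that passed the joint filter were highest there. Its level exceeded the next library 13.4-fold for *Cd3e*, 8.69-fold for *Cd79b*, 5.35-fold for *Ptprc* and 3.87-fold for *Cd79a*. The immunoglobulin genes were the exception, since virgin untreated 1 came close, within 1.02-fold for *Ighm* and 1.38-fold for *Igkc*. The main test of each comparison that involves this library is therefore given with and without it.

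**Figure D1:**
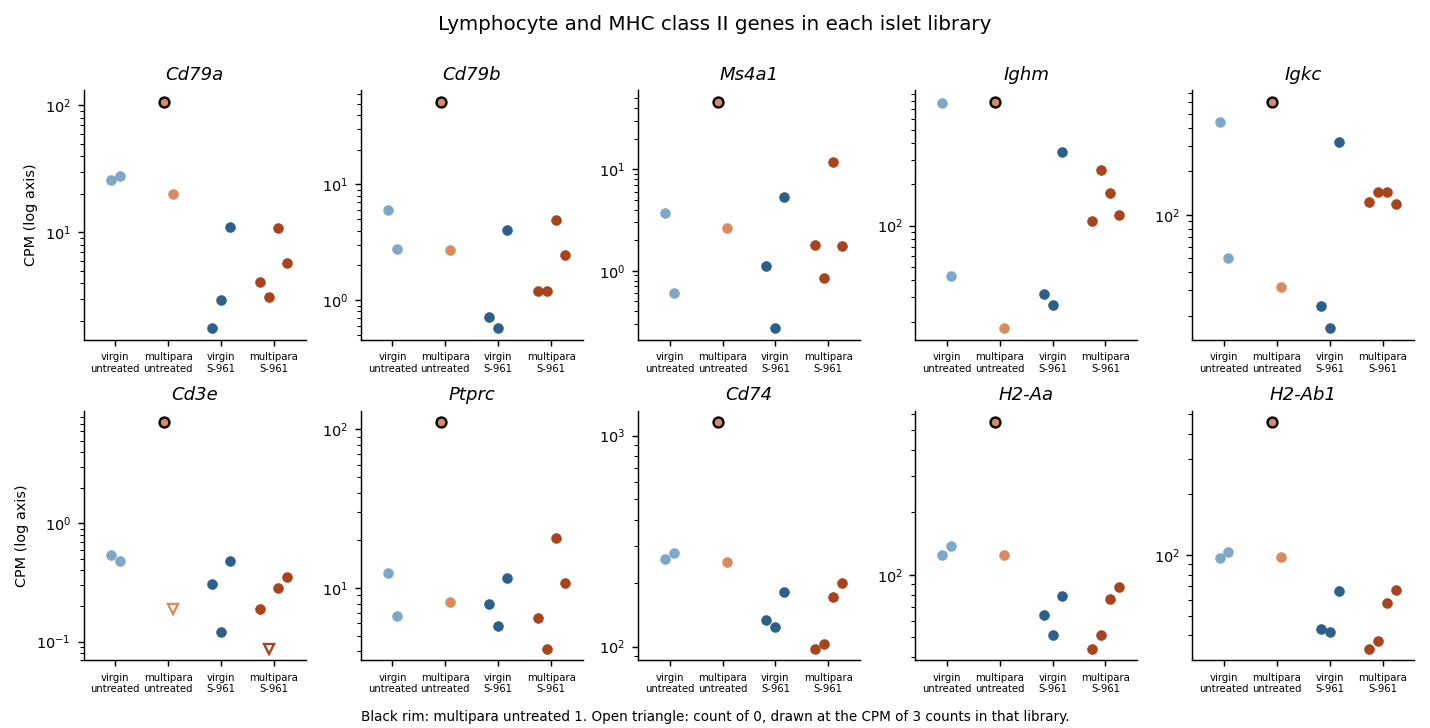
CPM of the 10 genes in each library on log axes, 1 point per library, by group. The rimmed point, multipara untreated 1, is the highest in every panel, and virgin untreated 1 nearly reaches it for Ighm (782 against 797 CPM). Open triangles are counts of 0, drawn at the CPM that 3 counts would give.

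The same library was compared over wider marker lists, which include the members themselves. All 24 B cell genes, 23 T cell genes, 11 MHC class II genes and 9 general leukocyte genes were highest in multipara untreated 1. The median gene of these lists stood 24.8-fold, 21.8-fold, 7.02-fold and 13.7-fold above the median of the other 10 libraries. T cell genes summed to 294 CPM there and to between 4.68 and 27.6 CPM elsewhere, and both *Cd4* (20.6 CPM) and *Cd8a* (14.3 CPM) were among those genes. Of 8 lymph node stroma genes, 5 were highest there, among them *Glycam1*, a product of the venules through which lymphocytes enter nodes, at 179 CPM, and the T zone chemokine *Ccl21a*, at 138 CPM. Among 7 germinal centre B cell genes, 6 were highest there, including *Gcsam* at 4.60 CPM against at most 0.282 CPM elsewhere. Of the other lists, 0 of 10 endocrine, 0 of 6 stromal and 1 of 6 endothelial genes were highest there. The acinar list, with 0 of 10, is no contrast, since acinar sums were far higher in all S-961 libraries. Among the untreated libraries, multipara untreated 1 had the highest stromal sum, 127 CPM against 56.5 to 90.3 CPM. Its acinar sum was 194 CPM, against 64.3 to 193 CPM, and its endocrine and endothelial sums were not the highest. Of 12 macrophage genes, 11 were highest there, and the median gene was 2.55-fold above the next library. The list summed to 906 CPM there and to at most 243 CPM elsewhere. In that list *Lyz2*, a gene of macrophages and other myeloid cells, reached 508 CPM against at most 56.7 CPM elsewhere. *C1qa*, a gene of resident macrophages, was 1.25-fold above the next library. Red cell genes summed to 2384 CPM there, with a highest value of 706 CPM elsewhere. All 5 granulocyte genes were highest there, with a sum of 81.1 CPM. That sum was 25.0 CPM in virgin untreated 1 and at most 2.21 CPM in the remaining libraries. The part of these cell types in the members' levels was not tested.

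**Figure D2:**
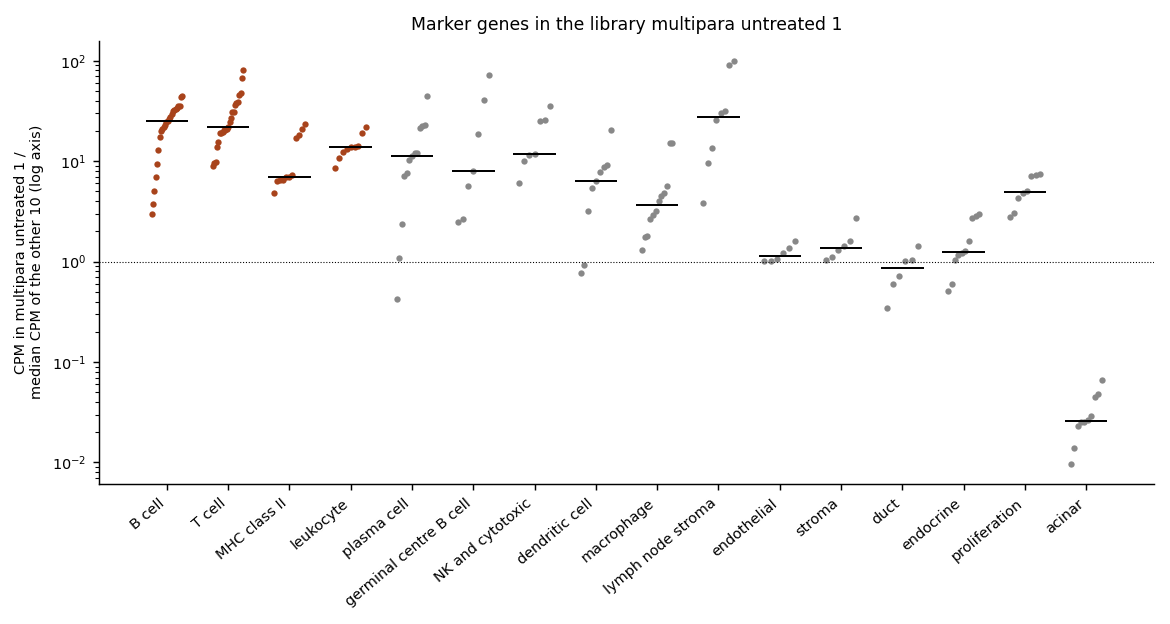
CPM in multipara untreated 1 divided by the median CPM of the other 10 libraries on a log axis, 1 point per gene and a bar at the list median, for genes with a median above 0. The B cell, T cell, MHC class II and leukocyte lists lie wholly above the dotted line at 1, with medians of 24.8, 21.8, 7.02 and 13.7. The acinar list lies below it, and acinar genes summed higher in every S-961 library than in any untreated one.

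*Ptprc* was present in every library. It was at 111 and 8.19 CPM in the multipara untreated libraries 1 and 2, and at 12.5 and 6.69 CPM in the virgin untreated libraries. With S-961 it was at 7.94, 5.76 and 11.6 CPM in virgin libraries and at 6.53, 4.16, 20.7 and 10.8 CPM in multipara libraries. Outside multipara untreated 1, all 4 groups overlapped, and multipara S-961 3 was the highest library.

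*Cd79a* did not overlap between treatments. It was at 25.9 and 27.6 CPM in virgin untreated libraries and at 107 and 20.04 CPM in multipara untreated libraries. The S-961 libraries lay lower, at 1.76, 2.96 and 11.03 CPM in virgin mice and at 4.06, 3.08, 10.8 and 5.73 CPM in multipara mice. Every S-961 library was thus below every untreated library, as for 19.1% of 17996 genes, and virgin and multipara values overlapped within each treatment. *Cd79b*, its partner, was at 5.97 and 2.78 CPM in virgin untreated libraries and at 51.9 and 2.71 CPM in multipara untreated libraries. With S-961 it was at 0.711, 0.573 and 4.07 CPM in virgin libraries and at 1.19, 1.19, 4.94 and 2.48 CPM in multipara libraries. Unlike *Cd79a*, it overlapped between treatments, since virgin S-961 3 and multipara S-961 3 exceeded virgin untreated 2.

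*Ms4a1* varied more from library to library than either. It was at 3.67 and 0.604 CPM in virgin untreated libraries and at 46.3 and 2.65 CPM in multipara untreated libraries. With S-961 it was at 1.11, 0.271 and 5.30 CPM in virgin libraries, and at 1.79, 0.843, 11.7 and 1.77 CPM in multipara libraries. The library multipara S-961 3 was the second highest of all, and the same library had the B zone chemokine *Cxcl13* at 52.3 CPM, the highest of 11.

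The immunoglobulin constant regions followed another order of libraries. *Ighm* was at 782 and 42.6 CPM in virgin untreated libraries and at 797 and 17.9 CPM in multipara untreated libraries. With S-961, virgin libraries had 31.9, 26.5 and 344 CPM and multipara libraries had 108, 252, 173 and 119 CPM. *Igkc* was at 439 and 50.5 CPM in virgin untreated libraries, at 605 and 31.7 CPM in multipara untreated libraries, at 23.5, 16.4 and 318 CPM in virgin S-961 libraries, and at 123, 144, 143 and 119 CPM in multipara S-961 libraries. In 3 of the 4 groups, 1 library was far above the rest, and the multipara S-961 libraries alone were close together for *Igkc* (132 ± 13.3 CPM, SD, n = 4). The plasma cell genes *Jchain*, the joining chain of IgM and IgA, and *Igha* peaked with them in multipara untreated 1, at 240 and 372 CPM. *Jchain* was next at 151 CPM in virgin untreated 1 and at 63.4 CPM in virgin S-961 3. *Ighg3*, however, was highest in virgin untreated 1, at 143 CPM against 54.4 CPM in multipara untreated 1. Reads of immunoglobulin constant genes can be shared between near-identical copies, so that *Ighg2b* and *Ighg2c* are not described singly.

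*Cd3e* was near the limit of detection in all but 1 library. It had 161 counts in multipara untreated 1 (7.19 CPM) and between 0 and 15 counts in each of the others. The virgin untreated libraries had 0.535 and 0.484 CPM, and the virgin S-961 libraries had 0.309, 0.121 and 0.485 CPM. Multipara S-961 libraries 1, 3 and 4 had 0.190, 0.283 and 0.355 CPM. Counts of 0 in multipara S-961 2 and multipara untreated 2 allow up to 0.0873 and 0.189 CPM, by a floor of 3 counts that covers counting error only. Other T cell genes, such as *Lck*, a kinase of the receptor complex, were detected in those 2 libraries, at 1.16 and 1.58 CPM, against 30.6 CPM in multipara untreated 1.

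The MHC class II genes shared one pattern across libraries. *Cd74* was at 261 and 277 CPM in virgin untreated libraries and at 1157 and 252 CPM in multipara untreated libraries. With S-961 it was at 134, 124 and 181 CPM in virgin libraries and at 97.8, 102, 172 and 199 CPM in multipara libraries. *H2-Aa* was at 124 and 138 CPM in virgin untreated libraries, at 546 and 124 CPM in multipara untreated libraries, at 63.7, 51.0 and 78.8 CPM in virgin S-961 libraries, and at 44.0, 50.9, 76.8 and 87.1 CPM in multipara S-961 libraries. *H2-Ab1* was at 96.3 and 104 CPM in virgin untreated libraries, at 457 and 98.2 CPM in multipara untreated libraries, at 43.0, 41.6 and 66.6 CPM in virgin S-961 libraries, and at 34.3, 37.3, 57.7 and 67.1 CPM in multipara S-961 libraries. For each of these 3 genes, all S-961 libraries lay below all untreated ones, so that 4 of 10 members did so beside 19.1% of all genes. The 3 untreated libraries other than multipara untreated 1 were within a narrow band. By total counts without TMM factors, *Cd79a* still separated, with at most 13.9 CPM with S-961 and at least 14.4 CPM untreated. The 3 class II genes then overlapped between treatments. *Cd74* was at 222 and 226 CPM in multipara S-961 3 and 4, against 181 CPM in multipara untreated 2.

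Within a library, counts of these genes kept nearly constant proportions. The ratio of *H2-Aa* to *Cd74* ran from 0.413 to 0.497 and was 0.472 in multipara untreated 1, a span of 1.205-fold over 11 libraries. *H2-Ab1* to *H2-Aa* ran from 0.675 to 0.844. Over 11 libraries, the log2 CPM of *H2-Aa* correlated with that of *H2-Ab1* at 0.997 and with that of *Cd74* at 0.996 (Pearson). Among genes that were no members, it was most like *H2-Eb1*, another class II beta chain gene, at 0.995, and then like *Ctss*, *C1qc*, *H2-DMb1* and *Tyrobp*. Without multipara untreated 1, *H2-Eb1* was again the first of the 13959 other genes compared, at 0.983, below *H2-Ab1* at 0.989 and *Cd74* at 0.989. These correlations describe libraries that share treatment and tissue makeup, and were not tested.

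The promoters of *H2-Aa* and *H2-Eb1* are shown because *H2-Eb1* was the gene most like *H2-Aa* outside the members, and MHC class II promoters are known to carry a Y box bound by the factor NF-Y. Sequences are from RefSeq on GRCm38.p6, from 250 bases before to 50 bases after the annotated start, at chr17:34287774-34288073 on the minus strand for *H2-Aa* and at chr17:34305617-34305916 on the plus strand for *H2-Eb1*. Capitals mark CTGATTGG, which holds the inverted CCAAT core.
H2-Aa: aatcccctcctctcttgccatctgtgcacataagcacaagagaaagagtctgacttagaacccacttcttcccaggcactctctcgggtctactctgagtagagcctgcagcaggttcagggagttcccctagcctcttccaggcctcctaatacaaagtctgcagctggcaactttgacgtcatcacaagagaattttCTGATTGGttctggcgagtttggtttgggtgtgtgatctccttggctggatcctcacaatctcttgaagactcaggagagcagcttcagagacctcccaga
H2-Eb1: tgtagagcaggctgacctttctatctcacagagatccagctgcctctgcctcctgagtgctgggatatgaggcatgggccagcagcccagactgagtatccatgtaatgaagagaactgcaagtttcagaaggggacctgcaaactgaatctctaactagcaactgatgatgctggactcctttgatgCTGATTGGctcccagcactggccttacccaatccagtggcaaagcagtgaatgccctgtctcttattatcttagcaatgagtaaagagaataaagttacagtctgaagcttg
The match began 51 bases before the start in *H2-Aa* and 62 bases before it in *H2-Eb1*. On either strand, CTGATTGG was found in 4.1% of 32851 promoter windows of that length, and CCAAT alone in 37.4%. ATGCAAAT, the octamer of immunoglobulin and other B cell promoters (1.74% of windows), was not found in the *Cd79a* window, one of 4 members with a window in the table. The *Cd79a* and *Cd3e* windows held GAGGAA, a PU.1 core also found in 28.3% of all windows. For *Ptprc*, the window at chr1:138175256-138175555 held it and the other *Ptprc* window did not. A match describes letters and was not tested as a binding site.

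B cell genes did not keep such proportions. The ratio of *Cd79b* to *Cd79a* counts ran from 0.101 in virgin untreated 2 to 0.486 in multipara untreated 1. *Ms4a1* to *Cd79a* ran from 0.0219 in virgin untreated 2 to 1.09 in multipara S-961 3, and was 0.434 in multipara untreated 1. *Igkc* to *Cd79a* ran from 1.58 in multipara untreated 2 to 46.6 in multipara S-961 2, and *Ighm* to *Cd79a* from 0.893 to 81.7 in the same libraries, a span of 91.4-fold. In multipara untreated 1, both immunoglobulin ratios, 5.66 and 7.46, were below their medians of 13.3 and 18.1. *Ighm* and *Igkc* stayed closer to each other, with ratios of *Igkc* to *Ighm* between 0.561 and 1.77. *Cd79a* to *Ptprc* ran from 0.222 in virgin S-961 1 to 4.13 in virgin untreated 2, so that the B cell receptor gene had more counts than the general leukocyte gene in virgin untreated 1 and 2 and multipara untreated 2, and fewer in the other 8 libraries. *Cd74* to *C1qa* was 9.69 in multipara untreated 1 and between 2.29 and 4.38 in the others.

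**Figure D3:**
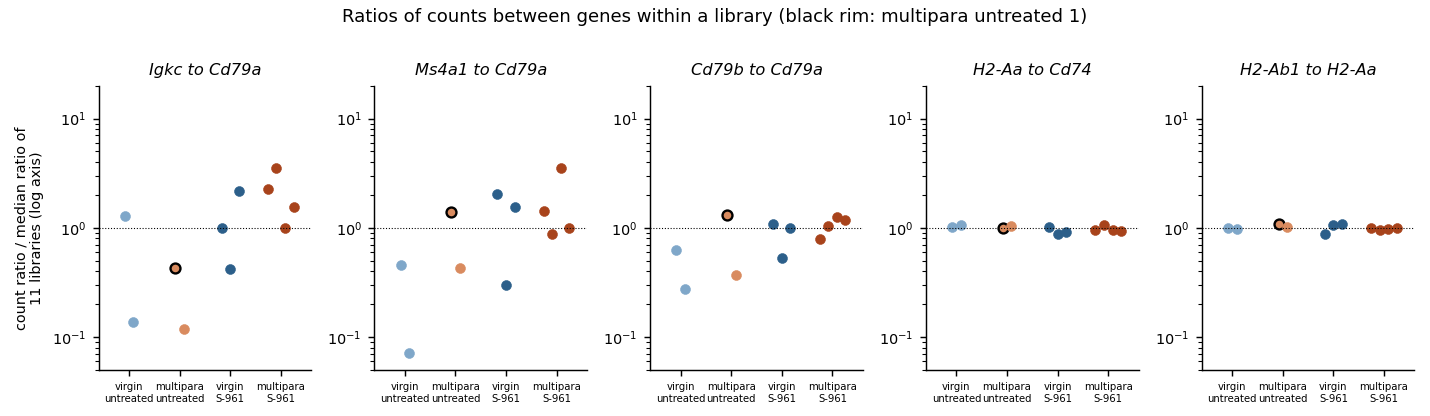
Ratio of counts between genes within each library, divided by the median ratio of 11 libraries, on log axes of equal span. The ratios of Igkc and Ms4a1 to Cd79a spread 29.4-fold and 49.6-fold, whereas the MHC class II ratios lie within 1.205-fold and 1.25-fold.

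Compared per length, in CPM per kb of exon, *Igkc* was the most abundant member in multipara untreated 1, at 1137, followed by *Cd74* at 689 and *Ighm* at 423. There *H2-Ab1* had 178, *H2-Aa* 144, *Cd79a* 73.3, *Cd79b* 36.3, *Ms4a1* 7.49, *Ptprc* 6.06 and *Cd3e* 1.76 CPM per kb. In multipara untreated 2, the other library of that group, *Cd74* led at 150 CPM per kb and *Igkc* was at 59.6, so that the order of these genes was not the same within the group.

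Spread within groups was wide for the lymphocyte genes. The within-group SD of log2 CPM was 2.18 for *Ighm*, 2.02 for *Cd3e*, 1.96 for *Ms4a1*, 1.88 for *Igkc* and 1.54 for *Cd79b*, against a median of 0.28 over all genes of the joint filter. These values were above those of 97.4% to 99.3% of genes. Without multipara untreated 1, *Ms4a1* was still at 1.76, *Ighm* at 1.74 and *Igkc* at 1.62, whereas *Cd3e* fell to 0.97. *Cd74*, *H2-Aa* and *H2-Ab1* were at 0.70, 0.67 and 0.70 over all libraries and at 0.40, 0.38 and 0.40 without it.

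The first comparison asked whether parity changed these genes in islets challenged with S-961. In 3 virgin and 4 multipara libraries, 0 of 10 members passed the test (edgeR quasi-likelihood, Benjamini-Hochberg adjusted p under 0.05), and 0% of the 16784 genes tested did. At an unadjusted p under 0.05 there were 1630 genes (9.71%), none of them a member, and DESeq2 called 369 genes (2.2%) and 0 members. Without multipara S-961 4, edgeR called 525 genes (3.16%), again with 0 members, and *Cd74*, *H2-Aa* and *H2-Ab1* had estimates of -0.22 ± 0.26, -0.15 ± 0.25 and -0.20 ± 0.26. The MHC class II members differed least, with log2 fold changes (multipara over virgin) of -0.02 ± 0.27 (SE) for *Cd74*, 0.02 ± 0.26 for *H2-Aa* and -0.03 ± 0.27 for *H2-Ab1*. *Ms4a1* had the largest estimate, 0.87 ± 1.07, with group means of 2.23 ± 2.70 (SD, n = 3) and 4.02 ± 5.12 CPM (SD, n = 4). None of the 10 members separated the groups without overlap, as 8.87% of genes did. Over the marker lists, the median log2 fold change was 0.59 over 23 B cell genes, -0.12 over 18 T cell genes and 0.04 over 11 MHC class II genes, and 0 genes of these lists passed.

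The immunoglobulin result of that comparison rested on 1 library. Without virgin S-961 3, *Igkc* was higher in multipara islets by 2.74 ± 0.21 on the log2 scale (edgeR adjusted p = 0.0182), the only gene of 17309 called (0.00578%). The remaining virgin libraries had 23.5 and 16.4 CPM, below the 119 to 144 CPM of the multipara libraries. *Ighm* gave 2.50 ± 0.37 there with an adjusted p of 0.708 in edgeR. Virgin S-961 3 also had more *Jchain*, at 63.4 CPM, than the other virgin S-961 libraries, at 6.06 and 2.96 CPM.

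The second comparison was multipara against virgin without treatment. Again 0 of 10 members passed edgeR's test, beside 0% of 15812 genes, with 889 genes (5.62%) at an unadjusted p under 0.05 and 56 genes (0.354%) by DESeq2, of which 0 were members. Estimates were positive for 10 of 10 members and led by *Ms4a1* (3.55 ± 1.57), *Cd3e* (2.85 ± 1.88), *Cd79b* (2.68 ± 1.37) and *Ptprc* (2.67 ± 1.24), but 1 multipara library lay above both virgin ones and the other below or between them. The smallest unadjusted p of a member was 0.0793, for *Ms4a1*. None separated the groups, as 36.1% of genes did. The median log2 fold change was 3.05 over 23 B cell genes, 2.75 over 22 T cell genes and 1.56 over 11 MHC class II genes, against 0.02 over all genes.

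These estimates depended on which multipara library was in the fit. Without multipara untreated 2, 8 of 10 members were higher in the remaining multipara library by edgeR, as were 1485 of 16851 genes (8.81%), and only *Ighm* and *Igkc* did not pass. Without multipara untreated 1, 0 members passed, beside 0.326% of genes, and 9 of 10 estimates were negative. *Ighm* then had a log2 fold change of -4.55 ± 1.37 and *Igkc* one of -2.97 ± 0.97, with edgeR adjusted p-values of 0.281 and 0.336. *Cd74*, *H2-Aa* and *H2-Ab1* gave -0.12 ± 0.11, -0.10 ± 0.11 and -0.05 ± 0.11, and *Cd3e* was at 0 counts in the library that remained. These fits assume that the lone multipara library varies like the others. Over the lists, the median became -0.44 for B cell, -1.60 for T cell and -0.12 for MHC class II genes.

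The third comparison was S-961 against no treatment in virgin mice, fitted on all 11 libraries. *Cd79a* was the 1 member that passed, 5.11-fold lower with S-961 (log2 fold change -2.35 ± 0.79, edgeR adjusted p = 0.0385). Means were 5.25 ± 5.04 (SD, n = 3) against 26.7 ± 1.21 CPM (SD, n = 2). The call was lost without any 1 of virgin S-961 1 or 2 or virgin untreated 1 or 2, with adjusted p-values from 0.111 to 0.131, and without virgin S-961 3 *Igkc* passed as well. Of all 17996 genes, 17.6% were called lower and 18.8% higher. *Cd74*, *H2-Aa* and *H2-Ab1* had estimates of -0.88 ± 0.50, -1.02 ± 0.48 and -0.99 ± 0.50, which did not pass (adjusted p = 0.196, 0.122 and 0.148). Their libraries did not overlap, nor did those of *Cd79a*, and this held for 35.6% of genes in that direction. *Ms4a1* (0.05 ± 1.45) and *Ptprc* (-0.18 ± 0.88) had group means of 2.14 and 2.23 CPM and of 9.58 and 8.45 CPM, untreated first.

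Multipara untreated 1 was in neither group of that contrast. It entered the fit through the shared spread, the filter, the TMM factors and the adjustment over all genes, and it changed the calls. Without it, the 3 class II members passed beside *Cd79a*, with the same estimates and smaller errors: -0.88 ± 0.30 for *Cd74* (edgeR adjusted p = 0.0451), -1.02 ± 0.28 for *H2-Aa* (0.0184) and -0.99 ± 0.29 for *H2-Ab1* (0.0258). The share of all genes called lower was then 16.4%. Of 11 MHC class II genes, 5 passed, the others being *H2-Eb1* (-0.98 ± 0.28) and *H2-DMa* (-0.58 ± 0.17), which encodes a chain of the peptide exchange factor. Of 23 T cell genes, *Cd3d*, *Cd6* and *Lck* passed, all lower. In the B cell list *Cd79a* alone passed of 24, and the median was -0.96. *C1qa* was lower as well, in the fit with all libraries (-0.93 ± 0.16) and without it, and *Aif1*, another macrophage gene, by -1.85 ± 0.63. With total counts in place of TMM, the median of all genes moved from -0.04 to 0.43 and 7.07% of genes were called lower and 35.6% higher. No member passed then, with *Cd79a* at -1.91 ± 0.84 (adjusted p = 0.0898) and *Cd74* at -0.42 ± 0.55.

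The fourth comparison was S-961 against no treatment in multipara mice. Of 10 members, 7 were called lower with S-961 by edgeR, beside 19.4% of all genes, while 18.2% were called higher. They were *Cd3e* (-4.10 ± 1.27, adjusted p = 0.0271), *Cd79b* (-3.48 ± 0.99, 0.0191), *Cd79a* (-3.42 ± 0.72, 0.00451), *Ptprc* (-2.50 ± 0.78, 0.0273), *H2-Ab1* (-2.50 ± 0.46, 0.00223), *H2-Aa* (-2.37 ± 0.45, 0.00239) and *Cd74* (-2.30 ± 0.46, 0.00346). *Ms4a1*, *Ighm* and *Igkc* did not pass. Without multipara S-961 1, 4 members passed, *Cd79a* and the 3 class II genes, and without multipara S-961 3, *Ms4a1* passed as well. The lists, which include the members, moved likewise. In them 13 of 24 B cell, 22 of 23 T cell, 11 of 11 MHC class II and 9 of 9 leukocyte genes were called lower. By libraries, however, 4 members did not overlap, *Cd79a* and the 3 class II genes, against 24.5% of all genes in that direction. By total counts without TMM factors, the 3 class II genes overlapped here too, and *Cd79a* did not.

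Those 7 calls rested on multipara untreated 1, and without it 0 of 10 members passed, while 10.8% of all genes were still called lower. Against multipara untreated 2 alone, *Cd79a* was at -1.76 ± 0.76 (edgeR adjusted p = 0.13), *H2-Ab1* at -0.998 ± 0.34 (0.068), *H2-Aa* at -0.94 ± 0.33 (0.0713) and *Cd74* at -0.82 ± 0.35 (0.131). *Ptprc* turned positive (0.37 ± 0.74), as did *Ms4a1* (0.61 ± 1.64), *Igkc* (2.06 ± 1.60) and *Ighm* (3.19 ± 1.82). No B cell, T cell, MHC class II or leukocyte gene was then called. *C1qa* (-1.09 ± 0.18), *Aif1* (-2.21 ± 0.57) and *Clec9a*, a dendritic cell gene (-2.13 ± 0.47), were still called lower. With total counts in place of TMM and all libraries, 6 members were called lower beside 7.25% of genes, 43.3% were called higher, and the median of all genes moved from 0.03 to 0.61.

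**Figure D4:**
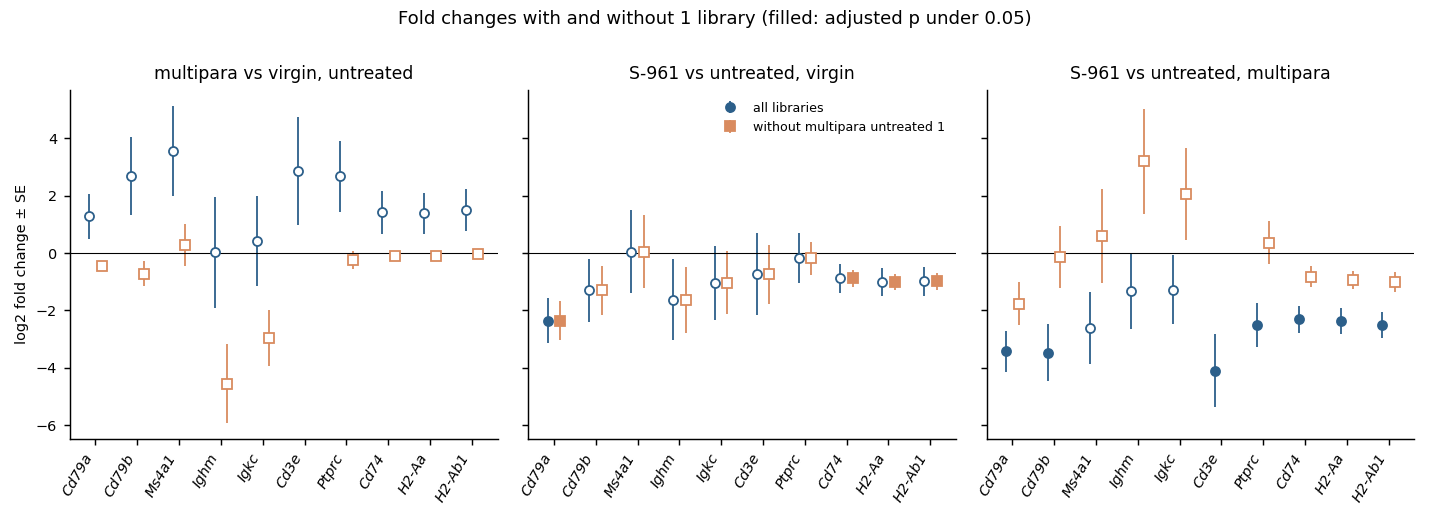
Log2 fold change ± SE of each gene in 3 comparisons, with all libraries (circles) and without multipara untreated 1 (squares), filled where the edgeR adjusted p was under 0.05. Cd3e without that library is left out where the multipara untreated group has 0 counts. The 7 filled circles in the right panel have no filled square beside them.

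The interaction asked whether the difference between S-961 and untreated libraries varied with parity. It was called for 0 of 10 members and for 0% of 17996 genes by edgeR, with 1179 genes (6.55%) at an unadjusted p under 0.05 and 81 genes (0.45%), none of them members, by DESeq2. The estimate for *H2-Ab1* was -1.51 ± 0.70 (adjusted p = 0.761) and that for *Cd79a* was -1.07 ± 1.09 (0.903). Without multipara untreated 1, *H2-Ab1* was at -0.01 ± 0.47 and *Cd79a* at 0.59 ± 1.08. The differences between S-961 and untreated libraries were therefore not shown to vary with parity, and the untreated groups of 2 libraries give wide intervals.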

How the data were processed

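Bulk RNA-seq of islets was analysed in 11 libraries, grouped by their GEO labels. Libraries were poly(A)-selected and strand-specific (TruSeq Stranded mRNA). The authors deposited estimated counts per gene, made with STAR and RSEM per the submitters' notes and without normalization; these notes name GRCm38 and mm10. Values were rounded to whole counts, and reads shared between similar genes had been divided by the counting. All 55536 identifiers and symbols matched GENCODE M21 (GRCm38), which gave gene positions and exon lengths.

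Tests used edgeR 4.0.16 in R 4.3.3 (TMM, filterByExpr with minimum count 10 and minimum total 15, quasi-likelihood F-test, Benjamini-Hochberg adjustment over all genes tested, threshold 0.05). The SE of a log2 fold change is its size over the square root of F. Each parity comparison used only the libraries it compares, and all 11 entered the other fits. Alternatives were DESeq2 1.42.0, its size factors, total counts, no filter, a minimum count of 30, robust fitting, another set of libraries in the fit, replicate number as a block and each library left out in turn. Within-group SD and correlations used log2 CPM with a prior count of 2. Fits were tested on simulated data. Summaries used Python 3.11.15 with pandas 2.3.3, and plots matplotlib 3.10.9.

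The naming rule took the 10 members, the most abundant and the called genes of the marker lists, the 5 genes outside the members most like *Cd79a*, *Cd3e* and *H2-Aa*, and *Mki67* and *Ins2*. Of the marker lists, some of these genes are named and the rest counted. Other genes were named after their values were seen: *Glycam1*, *Gcsam*, *Cd4*, *Cd8a*, *Cxcl13*, *Ighg3*, *Cdh22* and *Hps6*. The members and lists were chosen with earlier results of these data known. Depth of 22028507 to 32234146 counts per library puts the floor of 3 counts at 0.0772 to 0.189 CPM.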

Additional observations from a re-analysis of the deposited data

Results flagged for a closer look

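In groups of 4 libraries, each member was checked for a lone value by the gap to its nearest neighbour over the whole range. *Ms4a1* in multipara S-961 stood out, with 11.7 CPM in library 3 and at most 1.79 CPM in the other 3, a gap of 0.913 of the range, above Dixon's 95% critical value for 4 samples. It was the 1 such value in 10 checks. Dixon's value assumes normally spread values, for which chance gives about 1 in 20. The check used CPM and not log2 CPM, so that this rate need not hold and the flag may rest on the scale. The library multipara S-961 3 also had the highest *Ptprc* of its group, at 20.7 CPM, and the highest *Cxcl13* of all, at 52.3 CPM. The library multipara untreated 1 could not be checked in this way, since its group holds 2 libraries.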

How the results depend on the processing

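Log2 fold changes of the members were recomputed under each alternative: 607 kept their direction and their side of the threshold, 19 no longer passed, 18 newly passed and 71 changed sign, and the cause was not tested. The counts of genes called were 369 by DESeq2 and 342 with a replicate block for parity with S-961, and 56 by DESeq2, 3 without a filter and 1 each with a minimum count of 30 and with robust fitting for parity without treatment. The interaction gave 81 genes by DESeq2, 4 without a filter and 34 with a replicate block. S-961 in virgin mice gave 0 members with total counts or robust fitting, and 4 when only the compared libraries were in the fit. S-961 in multipara mice gave 4428 genes in that fit, against 6768. Total counts changed the split of higher and lower genes from 3390 and 3172 to 6409 and 1272 in virgin mice, and from 3272 and 3496 to 7787 and 1304 in multipara mice. Values that changed sign were near 0 in parity with S-961 for *Cd74* (0.0578) and *H2-Ab1* (0.0561) with total counts and for *H2-Aa* by DESeq2 (-0.0017) and its size factors (-0.0016), and in untreated parity for *Ighm* without a filter (-0.0029) and with all 11 libraries in the fit (-0.0155). *Ptprc* was at 0.27 with total counts in virgin mice.

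Deviations of same-numbered libraries correlated between -0.154 and 0.263. No differently numbered libraries were set beside them, so that these values do not decide whether the numbers mark a pairing. With the replicate block, members called were 8 in multipara mice and 1 in virgin mice treated with S-961, and signs changed for *H2-Aa* in parity with S-961 (-0.17), *Igkc* (-0.0763) and *Ighm* (-0.56) in untreated parity, *Ms4a1* in virgin mice (-1.49) and *Igkc* in the interaction (1.54).

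Leaving out each library in turn gave 0 to 525 genes and 0 to 1 members for parity with S-961, 0 to 1738 and 0 to 8 for untreated parity, 3053 to 6389 and 0 to 4 for S-961 in virgin mice, 3618 to 7451 and 0 to 8 for S-961 in multipara mice, and 0 to 45 genes for the interaction. For parity with S-961, the log2 fold changes ranged from -0.29 to 1.34 (*Cd79a*), -0.14 to 1.95 (*Cd79b*), -0.60 to 2.56 (*Ms4a1*), -0.22 to 2.50 (*Ighm*), -0.38 to 2.74 (*Igkc*), -0.24 to 0.64 (*Ptprc*), -0.22 to 0.16 (*Cd74*), -0.15 to 0.19 (*H2-Aa*) and -0.20 to 0.23 (*H2-Ab1*). For untreated parity they ranged from -0.44 to 2.01 (*Cd79a*), -0.71 to 3.58 (*Cd79b*), -4.55 to 3.28 (*Ighm*), -2.97 to 2.68 (*Igkc*), -6.53 to 3.82 (*Cd3e*), -0.25 to 3.54 (*Ptprc*), -0.12 to 2.12 (*Cd74*), -0.10 to 2.08 (*H2-Aa*) and -0.0482 to 2.21 (*H2-Ab1*). For S-961 in virgin mice they ranged from -1.63 to 1.87 (*Ms4a1*), -3.82 to 1.66 (*Ighm*), -3.62 to 1.24 (*Igkc*) and -0.56 to 0.34 (*Ptprc*), and in multipara mice from -4.06 to 0.61 (*Ms4a1*), -2.29 to 3.19 (*Ighm*), -2.19 to 2.06 (*Igkc*), -5.08 to 5.70 (*Cd3e*) and -3.39 to 0.37 (*Ptprc*). For the interaction they ranged from -1.82 to 0.59 (*Cd79a*), -3.10 to 1.15 (*Cd79b*), -4.48 to 0.55 (*Ms4a1*), -2.98 to 4.81 (*Ighm*), -2.51 to 3.10 (*Igkc*), -4.34 to 6.43 (*Cd3e*), -3.20 to 0.55 (*Ptprc*), -2.14 to 0.0603 (*Cd74*) and -2.05 to 0.0800 (*H2-Aa*). *Cd3e* without multipara untreated 1 is set against a group at 0 counts, so that its estimates there are no bound. Groups of 2 libraries limit every comparison with untreated islets.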

Other observations

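Among the 10 libraries other than multipara untreated 1, all 7 S-961 libraries lay below all 3 untreated ones for *Cd79a* alone of 24 B cell genes (4.17%), for 7 of 11 MHC class II genes (63.6%) and for 5 of 12 macrophage genes (41.7%), beside 21.7% of 17996 genes. The class II genes were *Cd74*, *H2-Aa*, *H2-Ab1*, *H2-Eb1*, *H2-DMa*, *H2-DMb1* and *Ctss*, and the macrophage genes were *C1qa*, *C1qb*, *C1qc*, *Aif1* and *Fcgr3*. These counts rest on the TMM factors. By total counts alone, *Cd74*, *H2-Aa* and *H2-Ab1* overlapped and *Cd79a* did not, and the genes outside the members were not checked. *Cd79a* was 4.36-fold higher in the untreated libraries by group mean. Its pattern was most like that of *Cdh22*, a cadherin gene, with a Pearson correlation of 0.996 over 10 libraries, the highest of 13959 genes. *Cdh22* was at 14.4 to 15.6 CPM in those untreated libraries and at 6.40 to 11.3 CPM with S-961. Over 11 libraries, the genes most like *Cd79a* were *Tec*, *Aif1*, *Cyb561a3*, *Tapbp* and *Fth1*, at 0.978 to 0.956. Those most like *Cd3e* were *Tcf7*, a T cell transcription factor gene, *Hvcn1*, *Itgb7*, *Dusp2* and *Irf8*, at 0.932 to 0.908. Without multipara untreated 1, *Cd3e* had at most 15 counts per library, and the order changed. *Hps6* came first at 0.871, followed by *Irf8* at 0.827. Members were left out of these rankings. These correlations describe libraries that share treatment and were not tested.

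The library virgin untreated 2 had *Glycam1* at 70.2 CPM, *Ccl21a* at 31.7 CPM and *Madcam1* at 3.83 CPM, while its *Ms4a1* was at 0.604 CPM. These groupings and genes were described after their values were seen.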
